A study of Mus musculus with 7 samples.

Results

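The 46 genes described here encode proteins of complement, blood clotting and fibrinolysis. They were chosen by function, as a list of gene symbols drawn up with earlier results of these data known and with no threshold on any value, out of 53465 genes counted in 7 libraries of EMT6 mouse mammary tumors. EMT6 is a transplantable mammary carcinoma line of BALB/c mice. All 7 libraries came from tumors grown after 500000 EMT6 cells were placed in the mammary fat pad of young adult BALB/c females with an intact immune system. The 3 EMT6-P tumors came from mice that received an isotype control antibody, and the 3 EMT6-PTR tumors from mice that received an antibody against PD-L1, each at 250 μg per mouse every 3 days from day 1 until the endpoint. The labels write PDR for the PTR group. A single EMT6-PTR metastasis completed the series: the labels do not name the organ it grew in, and its source is described there as breast tumor tissue. No label says whether replicates came from separate animals, so each p-value measures only the spread between these samples, which may be technical.

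Complement is a cascade of plasma proteases that tags surfaces with fragments of C3 and C4. It is started by C1q bound to antibody or debris, by lectins, or by the alternative loop of C3, factor B and properdin. Clotting starts where tissue factor meets factor VIIa and ends with thrombin cutting fibrinogen, and protein C with its receptors and the serpins hold thrombin in check. Plasmin, made from plasminogen by the activators tPA and uPA, dissolves the clot. Most circulating factors are made by the liver, whereas macrophages, fibroblasts, endothelium and carcinoma cells express C1q, C3, C1r, C1s, tissue factor, thrombomodulin, von Willebrand factor and uPA locally. In bulk tumor RNA, fewer cells of a type and less RNA per cell cannot be told apart.

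Total estimated counts ranged from 20430110 to 25213472 per library, so that 1 count was worth 0.0389 to 0.0555 CPM (counts per 1000000, with libraries scaled by their upper quartile). EMT6-PTR tumors varied more among themselves, with a common dispersion of 0.26 against 0.0274 for EMT6-P tumors. EMT6-PTR tumor 3 stood apart: it had the highest value of the 6 primary tumors for 12 and the lowest for 14 of the 34 members that passed the filter on low counts. Its 6 carcinoma epithelium markers summed to 608 CPM, against 2364 to 2692 in the other 5 tumors, and its 8 fibroblast markers to 20855 against 5755 to 9241. EMT6-PTR tumor 2 carried 13.85% of its counts on 1 gene, CT010467.1, against 0.443% to 1.35% in the other primary tumors. It had the highest sum of 8 interferon-stimulated genes, 592 CPM against 174 to 314. EMT6-PTR tumor 1 held skeletal muscle markers at 3663 CPM, against 3.50 to 629 elsewhere among the primary tumors. In the metastasis, all 8 lung alveolar and club cell markers were detected and summed to 8955 CPM, against 4.14 to 30.8 in the primary tumors, with 2970 CPM of neutrophil markers against 25 to 58.3 and 1166 CPM of endothelial markers against 166 to 234. Its erythroid markers summed to 7755 CPM against 30.8 to 377, its T cell markers to 29.6 CPM against 4.61 to 16.7 and its platelet and megakaryocyte markers to 63.8 CPM against 20.6 to 58.8. The part of these differences in any result was not tested, except where a value is given beside it.

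None of the 34 tested members passed an adjusted p of 0.05 between EMT6-PTR and EMT6-P tumors in edgeR's quasi-likelihood test, and 0 of all 15645 genes tested did (0%). DESeq2 called 281 genes, 138 higher and 143 lower, and no member. Its smallest adjusted p among the named members was 0.0718, for C4b, whose adjusted p ranged from 0.0718 to 0.866 over all alternatives. At an unadjusted p below 0.05, 8 members were higher in EMT6-PTR, 23.5% of those tested against 5.84% of all genes, and 1 was lower, 2.94% against 5.57%. The 8 were C1ra, C1s1, C2, C4b, Cfb, Serping1, F3 and Thbd, and the 1 was F2r. DESeq2 gave 10 and 2 members at this level, and limma-voom 5 and 2. These counts depended on single tumors: the 8 became 3, 4 and 2 without EMT6-P tumor 1, 2 or 3, and 1 and 4 without EMT6-PTR tumor 2 or 3. The 1 became 0 without EMT6-P tumor 2 or 3 or EMT6-PTR tumor 2, 3 without EMT6-PTR tumor 1 and 2 without tumor 3. At least 2-fold higher were 10 members, 29.4% against 6.27% of all genes, and 0 were at least 2-fold lower, where 1.29% of all genes were. The 10 became 6 without EMT6-PTR tumor 3, and the 0 became 2 without tumor 1. The 3 EMT6-PTR values all lay above the 3 EMT6-P values for 2 members (5.88%, all genes 9.52%) and all below for 3 (8.82%, all genes 11.8%), and these counts were 4 and 1 with scaling to total counts. The median log2 fold change was 0.24 over the members and 0.03 over all genes. Because the members were listed with results known, these shares are descriptions. The shares with groups that did not overlap rest on 2 and 3 members and moved with the scaling. They are not read as a difference from all genes.

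**Figure D1:**
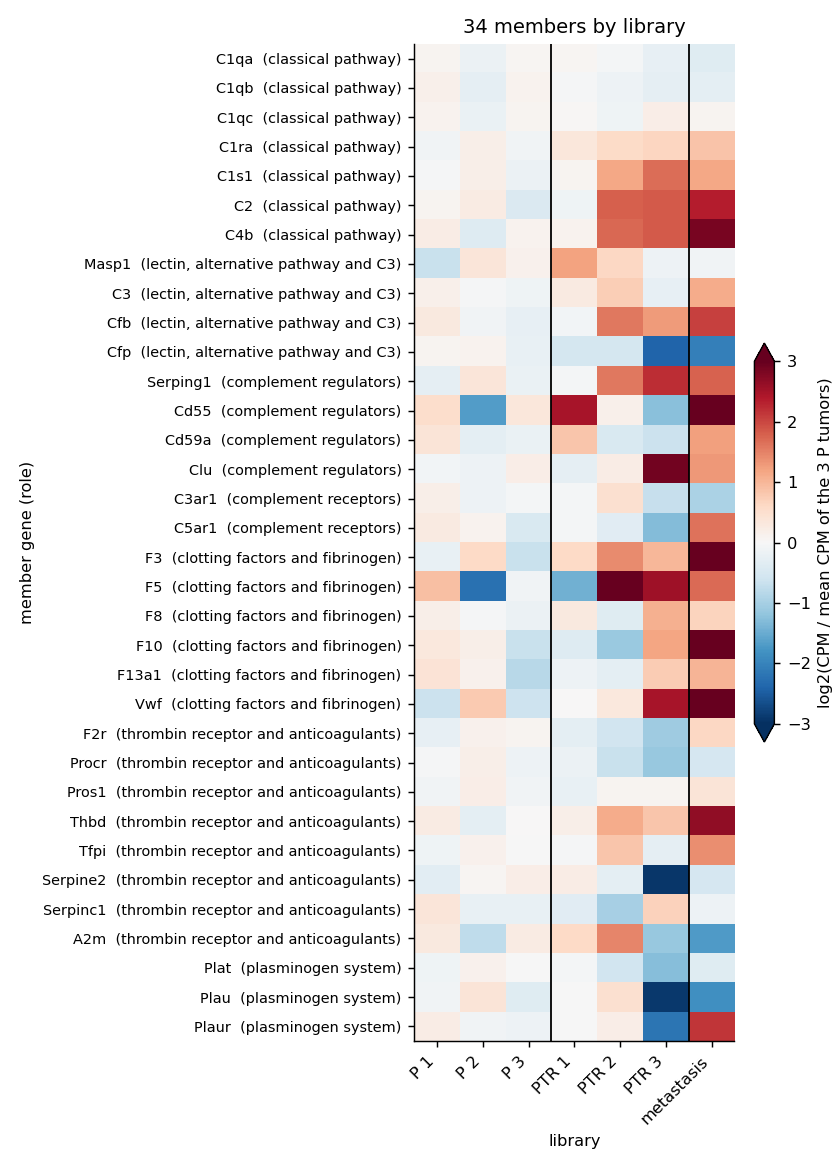
Heat map of the 34 tested members (rows, with their role) in 7 libraries (columns), as log2 of CPM over the mean CPM of the 3 EMT6-P tumors, with colors saturated at 3 and −3. C1s1, C2, C4b, Cfb and Serping1 were high in EMT6-PTR tumors 2 and 3 but not in tumor 1, and EMT6-PTR tumor 3 held the lowest primary values of Plau, Plaur and Serpine2.

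The recognition subunits of the classical pathway, C1q chains A, B and C, lay within 0.15 on the log2 scale of equal levels in both groups. C1qa stood at 479, 401 and 472 CPM in EMT6-P and at 472, 432 and 379 CPM in EMT6-PTR, a log2 fold change of −0.08 ± 0.15 (SE, n = 3 each). The groups overlapped. C1qb differed by −0.15 ± 0.16 and C1qc by 0.04 ± 0.16. Per kilobase of exon, C1qa was the most abundant member, with 433 CPM per kb in EMT6-P, ahead of C1qb at 293 and C1qc at 182. The 8 macrophage markers summed to 1458 to 1756 CPM in EMT6-P and to 2049, 1309 and 957 CPM in EMT6-PTR. C1qa amounted to 26.9% to 27.9% of that sum in EMT6-P, and to 23.0%, 33.0% and 39.6% in the EMT6-PTR tumors. The 3 chains are assembled in one protein and their genes lie side by side on chromosome 4, yet they did not keep one ratio. C1qc was 0.747 to 0.790 of C1qa in 5 primary tumors, 1.06 in EMT6-PTR tumor 3 and 1.07 in the metastasis, while C1qb stayed at 0.656 to 0.739 of C1qa in all 7 libraries.

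Among the proteases that C1q activates and the components they cut, 4 members had an unadjusted p below 0.05, and their difference from C1q was not tested. C1s1 encodes the C1s protease that cleaves C4 and C2. It stood at 90.9, 105 and 81.6 CPM in EMT6-P and at 98.6, 206 and 295 CPM in EMT6-PTR. The groups overlapped, since EMT6-PTR tumor 1 lay among the controls, and the other EMT6-PTR tumors lay at 2.22 and 3.19 times the control mean. The log2 fold change was 1.11 ± 0.38 (SE, adjusted p = 0.427). C1ra encodes C1r, the protease that activates C1s, and had values of 59.7, 72.5 and 59.3 CPM in EMT6-P and of 80.9, 94.4 and 100 CPM in EMT6-PTR. Its groups did not overlap, and its log2 fold change was 0.52 ± 0.15 (adjusted p = 0.421).

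C4b and C2 supply the C3 convertase of this pathway. C4b stood at 38.9, 25.1 and 35.4 CPM in EMT6-P and at 35.6, 110 and 119 CPM in EMT6-PTR, and C2 at 5.83, 6.56 and 4.09 CPM against 5.00, 19.1 and 19.8 CPM. Again EMT6-PTR tumor 1 lay within the control range and tumors 2 and 3 lay at 3.31 to 3.60 times the control mean for both genes. The log2 fold changes were 1.41 ± 0.45 for C4b (adjusted p = 0.424) and 1.41 ± 0.53 for C2 (adjusted p = 0.427). The study placed both genes in a list of secreted factors that it chose on these samples, so their direction is no independent evidence. C1ra, C1s1 and C4b have near-identical neighbours (C1rb, C1s2 and C4a) with which the counting shares reads by estimation, and their split is uncertain. C1s2 was 0.103 to 0.124 and C4a 0.0312 to 0.0648 of the partner gene in all 7 libraries.

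**Figure D2:**
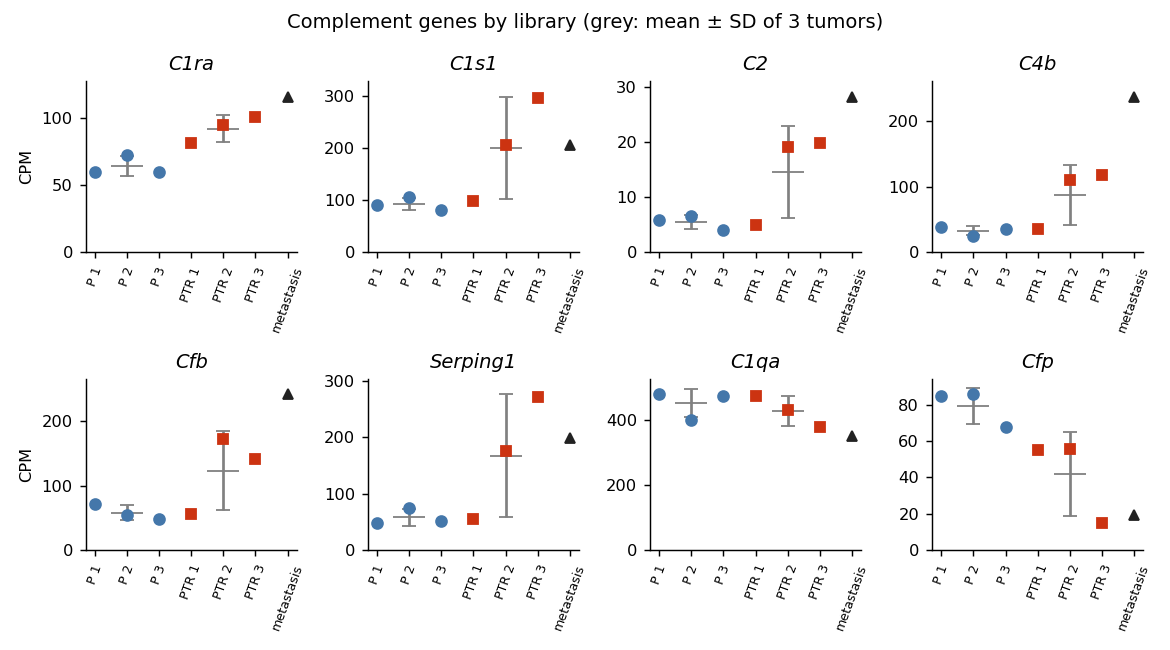
CPM (linear axis from 0) of 8 complement genes in the 3 EMT6-P tumors (blue circles), the 3 EMT6-PTR tumors (red squares) and the metastasis (black triangle), with the mean ± SD of each group of 3 in grey. C1s1, C2, C4b, Cfb and Serping1 were near control values in EMT6-PTR tumor 1 and high in tumors 2 and 3, whereas C1qa overlapped between groups and Cfp was lower in all 3 EMT6-PTR tumors.

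In the alternative pathway, factor B followed C2. Cfb encodes the protease of the alternative C3 convertase, and its gene starts 85 bases after the end of C2 on chromosome 17, both on the minus strand. Cfb stood at 71.0, 54.4 and 48.9 CPM in EMT6-P and at 55.3, 173 and 142 CPM in EMT6-PTR, a log2 fold change of 1.08 ± 0.41 (adjusted p = 0.432). The ratio of Cfb to C2 was 8.28 to 12.2 in EMT6-P and 7.16 to 11.1 in EMT6-PTR. C3, the shared substrate, stood at 284, 250 and 237 CPM against 311, 429 and 217 CPM, with the highest value in EMT6-PTR tumor 2, the lowest in tumor 3 and a log2 fold change of 0.31 ± 0.26 (adjusted p = 0.626). The summed interferon-stimulated genes were 592 CPM in EMT6-PTR tumor 2 and 222 CPM in tumor 3, and their part in the values of C4b, C2 and Cfb was not tested.

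Properdin, which stabilises the alternative convertase, ran the other way. Cfp stood at 84.5, 85.7 and 67.8 CPM in EMT6-P and at 55.2, 55.4 and 15.0 CPM in EMT6-PTR, without overlap. The log2 fold change was −0.92 ± 0.47 (adjusted p = 0.480) and narrowed to −0.52 without EMT6-PTR tumor 3. Cfp made up 3.86% to 5.88% of the macrophage marker sum in EMT6-P and 2.70%, 4.24% and 1.57% in the EMT6-PTR tumors. Masp1, a lectin pathway protease, had low values, at 0.73 to 1.49 CPM in EMT6-P and 2.70, 1.78 and 1.05 CPM in EMT6-PTR (log2 fold change 0.66 ± 0.47, adjusted p = 0.583). The study's own lower list holds Cfp, and it was chosen on these samples.

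Among the regulators, Serping1, the C1 inhibitor that inactivates C1r and C1s, had the same order of EMT6-PTR tumors as C1s1. It stood at 48.5, 75.3 and 50.9 CPM in EMT6-P and at 55.7, 175 and 273 CPM in EMT6-PTR, a log2 fold change of 1.53 ± 0.54 (adjusted p = 0.427). The groups overlapped through EMT6-PTR tumor 1, and the gene is in the study's higher list, chosen on these samples. Serping1 was 0.533 to 0.715 of C1s1 in EMT6-P, 0.564 in EMT6-PTR tumor 1 and 0.851 and 0.924 in tumors 2 and 3. Relative to the fibroblast marker sum, Serping1 was 0.669% to 1.21% in EMT6-P and 0.825%, 1.90% and 1.31% in EMT6-PTR, and C1s1 was 1.07% to 1.69% and 1.46%, 2.23% and 1.41%. On that scale EMT6-PTR tumor 3 lay within or close to the control range for C1s1, C4b (0.569%, controls 0.404% to 0.675%), Cfb (0.679%, controls 0.642% to 1.23%) and Serping1, and tumor 2 lay above it. C1ra and Clu differed from these 4: C1ra was 0.48% in tumor 3, below controls of 0.779% to 1.17%, with tumor 2 inside at 1.02%, and Clu was 3.69% in tumor 3, above controls of 1.503% to 1.71%. These ratios were chosen after the values were seen.

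Clu encodes clusterin, an inhibitor of the membrane attack complex. It stood at 98.4, 93.5 and 120 CPM in EMT6-P and at 86.7, 121 and 769 CPM in EMT6-PTR. The log2 fold change of 1.65 ± 0.82 (adjusted p = 0.474) rested on tumor 3, and without it was 0.00 (−0.001). Cd55, the decay-accelerating factor, stood at 1.07, 0.23 and 0.94 CPM against 4.17, 0.83 and 0.31 CPM. Its 1.24 ± 1.01 (adjusted p = 0.621) rested on tumor 1, the tumor with muscle markers, and was −0.41 without it. Cd59a, which blocks the terminal complex, overlapped between groups at 1.52 to 4.22 CPM. Cfi, the protease that degrades C3b and C4b, and Vtn, vitronectin, did not pass the filter, with at most 1.04 CPM in any primary tumor.

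The anaphylatoxin receptors showed no separation. C3ar1 stood at 88.3, 69.6 and 74.9 CPM in EMT6-P and 74.7, 109 and 47.7 CPM in EMT6-PTR (log2 fold change −0.01 ± 0.30, adjusted p = 0.990). C5ar1 stood at 32.7, 29.0 and 19.8 CPM against 26.2, 21.6 and 11 CPM (−0.47 ± 0.35, adjusted p = 0.593). Both were lowest in EMT6-PTR tumor 3, where macrophage markers were lowest too, at 957 CPM.

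The promoters of 31 of the 46 members were matched in RefSeq (GRCm38.p6), and the 250 bases before the start were searched on both strands for 3 motifs. AP-1 sites, written TGANTCA, were found in 22.6% of these members and in 6.75% of all 32851 promoters. GAS sites (TTCNNNGAA), the element bound by STAT dimers, were found in 12.9% and 7.02%, and an interferon response core (GAAANNGAA) in 6.45% and 7.13%. A match describes letters, not binding, and no overlap between motifs was removed. C1ra and C1s1 are printed because both were above all controls in EMT6-PTR tumors 2 and 3, and neither had a match. For C1ra the RefSeq start lies 216 bases from the GENCODE start, so most of its printed stretch lies inside the GENCODE gene. For Procr the RefSeq start lies 100 bases inside the GENCODE gene. Among promoters searched but not printed, the distance was 2574 bases for F8, 2515 for Serpine2, 202 for C5ar1 and 151 for C1qc. F3, Plaur, F2r and Procr are printed as clotting and fibrinolysis genes picked because each holds AP-1 letters, given in capitals, 5′ to 3′ on the strand of the gene.
C1ra, chr6:124512371-124512620, plus strand: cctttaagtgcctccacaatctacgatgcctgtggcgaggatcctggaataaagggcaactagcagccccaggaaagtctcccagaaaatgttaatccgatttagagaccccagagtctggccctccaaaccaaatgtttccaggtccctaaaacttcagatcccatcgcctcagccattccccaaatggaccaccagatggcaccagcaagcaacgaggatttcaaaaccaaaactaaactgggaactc
C1s1, chr6:124542360-124542609, minus strand: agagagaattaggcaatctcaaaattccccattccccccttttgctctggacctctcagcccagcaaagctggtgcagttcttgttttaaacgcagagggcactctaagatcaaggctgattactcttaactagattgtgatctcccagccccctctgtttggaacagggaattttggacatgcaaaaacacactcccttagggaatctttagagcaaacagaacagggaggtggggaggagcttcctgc
F3, chr3:121723287-121723536, plus strand: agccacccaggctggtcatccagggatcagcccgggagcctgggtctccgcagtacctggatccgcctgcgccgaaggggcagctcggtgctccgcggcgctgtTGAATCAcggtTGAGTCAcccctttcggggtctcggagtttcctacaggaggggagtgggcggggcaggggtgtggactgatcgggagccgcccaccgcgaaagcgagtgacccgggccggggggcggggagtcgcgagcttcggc
Plaur, chr7:24462233-24462482, plus strand: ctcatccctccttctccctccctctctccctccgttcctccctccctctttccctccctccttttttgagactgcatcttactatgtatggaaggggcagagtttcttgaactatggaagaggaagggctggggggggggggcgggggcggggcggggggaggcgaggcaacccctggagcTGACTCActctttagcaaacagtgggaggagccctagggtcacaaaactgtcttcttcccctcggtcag
F2r, chr13:95618467-95618716, minus strand: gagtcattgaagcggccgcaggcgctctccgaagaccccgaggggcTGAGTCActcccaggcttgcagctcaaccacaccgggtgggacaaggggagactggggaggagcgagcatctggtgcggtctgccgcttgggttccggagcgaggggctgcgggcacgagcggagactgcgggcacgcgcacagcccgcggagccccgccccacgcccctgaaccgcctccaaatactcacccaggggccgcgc
Procr, chr2:155750967-155751216, plus strand: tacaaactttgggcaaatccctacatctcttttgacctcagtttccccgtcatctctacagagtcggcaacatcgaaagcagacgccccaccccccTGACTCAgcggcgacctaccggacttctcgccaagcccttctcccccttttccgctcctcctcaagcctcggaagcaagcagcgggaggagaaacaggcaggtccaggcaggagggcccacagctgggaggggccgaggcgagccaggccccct
The F3 promoter held 2 AP-1 matches, with first bases 146 and 135 bases before the start. The match lay 69 bases before the start in Plaur, 204 in F2r and 154 in Procr. These 4 genes did not share a direction between groups. AP-1 letters were also found in C3ar1, F2 and Fgb. F5, the tested member with the largest log2 fold change, had no match to any of the 3 motifs. A link between the letters and the values was not tested. Promoters of C2, C4b, Cfb, Serping1, Thbd, Vwf and Plau were not matched.

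Tissue factor, encoded by F3, starts the extrinsic pathway and had the clearest clotting pattern. F3 stood at 11.6, 20.4 and 8.46 CPM in EMT6-P and at 20.6, 35.9 and 27.0 CPM in EMT6-PTR. The groups did not overlap, although the highest control and the lowest EMT6-PTR tumor nearly touched. The log2 fold change was 1.04 ± 0.37 (adjusted p = 0.427) and stayed between 0.79 and 1.47 when each tumor was left out. The study's higher list, chosen on these samples, holds F3.

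F5 encodes factor V, the cofactor of the prothrombinase, and varied widely. It stood at 20.3, 2.33 and 10.2 CPM in EMT6-P and at 4.04, 153 and 64.0 CPM in EMT6-PTR, a log2 fold change of 2.75 ± 1.26 (adjusted p = 0.454). EMT6-PTR tumor 1 lay within the control range and tumor 2 lay at 13.95 times the control mean. Vwf, von Willebrand factor, stood at 2.77, 7.45 and 2.82 CPM against 4.39, 5.38 and 23.9 CPM (1.37 ± 0.77, adjusted p = 0.505), and without EMT6-PTR tumor 3 the log2 fold change was 0.17. Endothelial markers were not higher in that tumor, at 166 CPM, so that Vwf was 14.4% of their sum there, against 1.28% to 4.35% in the other 5 primary tumors. Both genes are in the study's higher list, chosen on these samples.

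The remaining clotting factors were low or overlapped. F13a1, the subunit of factor XIII that macrophages and platelets carry, stood at 47.8, 39.4 and 20.1 CPM in EMT6-P and 32.2, 29.3 and 60.7 CPM in EMT6-PTR (log2 fold change 0.19 ± 0.40, adjusted p = 0.863). F10, factor X, stood at 1.51, 1.35 and 0.752 CPM against 0.913, 0.555 and 2.73 CPM, and F8, the cofactor factor VIII, at 0.486, 0.419 and 0.376 CPM against 0.522, 0.333 and 0.895 CPM. All 3 were highest in EMT6-PTR tumor 3 and overlapped between groups. F7, F9, F2, Fga, Fgb and Fgg stayed at or below 0.437 CPM in all primary tumors and F11 had 0 counts in all 7 libraries, which allows up to 0.117 to 0.167 CPM in a primary tumor. Markers of hepatocytes, the usual source of these factors, summed to 0.291 to 0.666 CPM in the primary tumors.

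**Figure D3:**
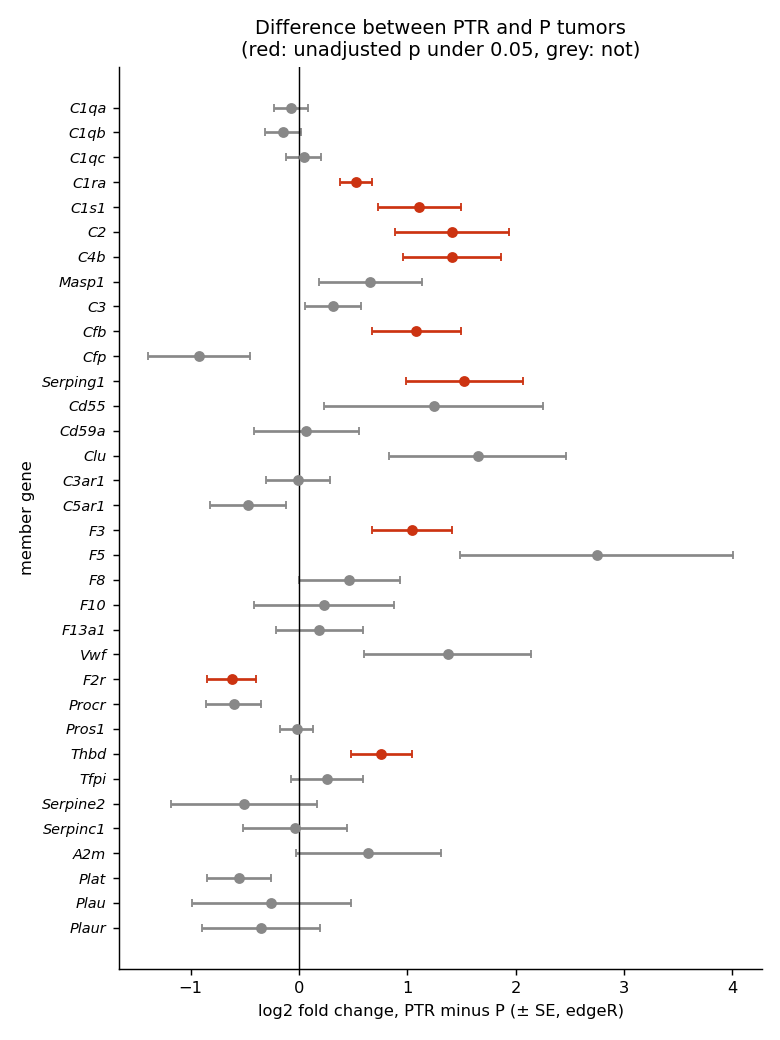
Log2 fold change between EMT6-PTR and EMT6-P tumors (x axis, ± SE from edgeR, n = 3 each) of the 34 tested members (rows), with the 9 members at an unadjusted p below 0.05 in red. The red points spanned −0.62 for F2r to 1.53 for Serping1, and the largest value, 2.75 for F5, had an SE of 1.26.

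The receptors that read or redirect thrombin split. F2r, the thrombin receptor PAR1, stood at 103, 136 and 131 CPM in EMT6-P and at 99.7, 82.2 and 58.3 CPM in EMT6-PTR, without overlap (log2 fold change −0.62 ± 0.23, adjusted p = 0.427). Procr, the endothelial protein C receptor, stood at 40.8, 47.5 and 37.9 CPM against 37.3, 26.6 and 19.2 CPM, also without overlap (−0.60 ± 0.26, adjusted p = 0.441). Thbd, thrombomodulin, which turns thrombin towards protein C, stood at 17.7, 12.2 and 15.1 CPM against 16.9, 32.6 and 26.6 CPM, with tumor 1 among the controls and tumors 2 and 3 above them (0.76 ± 0.28, adjusted p = 0.427). Thbd and Procr, the receptors of protein C activation, lay on opposite sides of 0, and the difference between them was not tested. Without EMT6-PTR tumor 3 the values were −0.44 for F2r and −0.40 for Procr.

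Protein S, a cofactor of activated protein C encoded by Pros1, had similar values in all tumors, at 54.8 to 67.2 CPM in EMT6-P and 50.3 to 62.3 CPM in EMT6-PTR (log2 fold change −0.02 ± 0.15, adjusted p = 0.962). Tfpi, the inhibitor of tissue factor and factor VIIa, stood at 6.56 to 7.91 CPM against 7.0, 12.9 and 6.03 CPM. Serpine2, protease nexin-1, stood at 33.8, 43.7 and 48.5 CPM against 48.6, 34.5 and 5.57 CPM, and its −0.51 ± 0.68 (adjusted p = 0.763) became −0.01 without EMT6-PTR tumor 3. Serpine2 is in the study's lower list, chosen on these samples. Serpinc1 (antithrombin) and A2m (α2-macroglobulin) lay at 1.94 to 6.31 and 0.467 to 2.83 CPM and overlapped. Proc, protein C itself, had at most 7 counts in a primary tumor and was not tested.

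The plasminogen activators and their receptor were abundant, and no tested member of this group had an unadjusted p below 0.05. Plau, uPA, stood at 200, 281 and 167 CPM in EMT6-P and at 212, 301 and 29.2 CPM in EMT6-PTR (log2 fold change −0.25 ± 0.73, adjusted p = 0.901). Plaur, the uPA receptor, stood at 117, 92.7 and 89.3 CPM against 98.9, 114 and 22.0 CPM (−0.35 ± 0.55, adjusted p = 0.802). Tumor 3 alone was low: without it the log2 fold changes were 0.25 for Plau and 0.09 for Plaur. Plat, tPA, stood at 117, 138 and 126 CPM against 121, 85.0 and 52.6 CPM (−0.56 ± 0.30, adjusted p = 0.489), lower in tumors 2 and 3.

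Relative to the carcinoma epithelium marker sum, Plaur was 3.62% in EMT6-PTR tumor 3 and 3.32% to 4.80% in the other 5 primary tumors, Plau was 4.80% against 6.20% to 12.7%, and Plat was 8.64% against 3.60% to 5.50%. Plg, plasminogen, had at most 1 count in any library, and Serpinf2, the plasmin inhibitor α2-antiplasmin, at most 10.

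**Figure D4:**
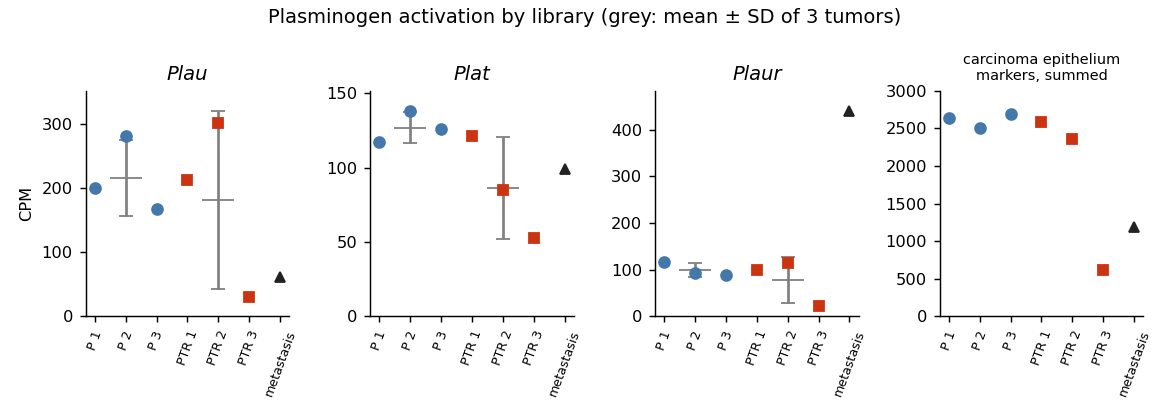
CPM (linear axes from 0) of Plau, Plat and Plaur, and the summed CPM of 6 carcinoma epithelium markers, in the EMT6-P tumors (blue circles), EMT6-PTR tumors (red squares) and the metastasis (black triangle), with group mean ± SD in grey for the genes. EMT6-PTR tumor 3 was lowest of the primary tumors in all 4 panels, and the metastasis was highest for Plaur (439 CPM).

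Of 62 further genes of these pathways that were no members, 36 were tested and 0 were called by edgeR. At an unadjusted p below 0.05, 8 were higher and 2 were lower, where 5.84% and 5.57% of all genes were, with a median log2 fold change of 0.08 against 0.03. C1s2, C1rl and C8g are in the study's higher list and Masp2, Cfd and Tfpi2 in its lower list, both chosen on these samples. C1s2 stood at 9.49 to 10.9 CPM in EMT6-P and at 12.2, 23.3 and 31.9 CPM in EMT6-PTR, C4a at 1.21 to 1.63 against 2.17, 5.49 and 5.02 CPM, and Gas6, a ligand of the TAM receptors that resembles protein S, at 39.2 to 44.9 against 70.8, 57.2 and 123 CPM. All 3 had groups that did not overlap. Over the 36 tested genes this held for 6 on the higher and 5 on the lower side, where it held for 9.52% and 11.8% of all genes. Genes named here were picked for the smallest p of their lists, which favors groups without overlap. C1qbp, a C1q-binding protein of mitochondria and the cell surface, stood at 110 to 127 CPM against 83.4 to 85.1 CPM, and Mcfd2, which helps export factors V and VIII from the endoplasmic reticulum, at 99.5 to 107 CPM against 78.8 to 97.9 CPM, both also without overlap. Kng2, a kininogen, stood at 3.50, 0.79 and 2.21 CPM in EMT6-P and at 4.30, 31.1 and 40.8 CPM in EMT6-PTR (3.55 ± 0.92). S100a10, part of a plasminogen receptor, stood at 636, 588 and 636 CPM against 361, 320 and 382 CPM, and its partner Anxa2 at 2160 to 2391 CPM against 1736, 1970 and 1244 CPM. Serpinb2, an inhibitor of uPA that the study placed in its lower list on these samples, stood at 1.02, 0.931 and 1.27 CPM against 0.783, 1.89 and 0.0389 CPM and overlapped (−0.28 ± 0.97, adjusted p = 0.922). DESeq2 called 4 of these genes: C4a and Kng2 higher, and C1qbp and S100a10 lower.

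In the metastasis, 7 of the 34 members tested in the primary tumors lay at least 2-fold above the highest primary tumor, 20.6% against 5.71% of the 15645 genes tested, and 0 lay at least 2-fold below the lowest, where 1.35% of genes did. It is 1 library, so no test was possible. With the metastasis as a group in the filter, which then asks for enough counts in 1 library only, the counts were 11 and 0 of 40 members, against 10.5% and 1.23% of 18619 genes. Of the 6 members this adds, Cfi, F7, Fga and Fgg are among the 11 and passed through the library in which they were high, so that their count is no result, and Vtn and Serpinf2 are not. Tissue factor was far outside the range: F3 stood at 361 CPM against 8.46 to 35.9 CPM, a log2 difference of 3.33 from the highest primary tumor. Vwf stood at 188 CPM against 2.77 to 23.9 CPM (2.97), Plaur at 439 CPM against 22.0 to 117 CPM (1.91) and Thbd at 94.1 CPM against 12.2 to 32.6 CPM (1.52). These are a clotting initiator, a platelet adhesion protein, the uPA receptor and an anticoagulant cofactor.

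Some clotting factors that the liver usually makes had higher values in the metastasis. F7, factor VII, stood at 4.10 CPM against at most 0.437 CPM, and its neighbour F10, factor X, at 17.9 CPM against 0.555 to 2.73 CPM. Fga, fibrinogen chain α, had 0 counts in all 6 primary tumors and 72 in the metastasis, at least 17.2-fold higher, taking 3 counts per library as the floor. Fgg, chain γ, had 44 counts against at most 1, whereas Fgb, chain β, had 0. Other factors were not higher: F2 and F9 had 1 count each in the metastasis, F11 and Plg had 0 and Serpinf2 had 2. Serpinc1, at 3.46 CPM, lay inside the primary range of 1.94 to 6.31 CPM. Proc had 10 counts, against at most 7 in a primary tumor. Hepatocyte markers summed to 2.31 CPM in the metastasis. C5ar1 (84.1 CPM, primary tumors 11 to 32.7), Cd55 (11.3 CPM, primary tumors 0.233 to 4.17) and Cfi (0.677 CPM, 17 counts) completed the 11.

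The endothelial, neutrophil, lung and erythroid marker sums were all higher in the metastasis beside these members. Thbd was 8.07% of the endothelial marker sum in the metastasis, inside the primary range of 6.88% to 16.4%, whereas Vwf was 16.2% against 1.28% to 14.4%. C5ar1 was 2.83% of the neutrophil marker sum, against 32.6% to 87.6% in the primary tumors, and F3 was 4.03% of the lung marker sum, against 115% or more. The lung marker sum was only 4.14 to 30.8 CPM in the primary tumors, with up to 6 of its 8 markers at 0 counts. The primary ratios therefore do not scale F3 to lung cells. Plaur was 37.0% of the carcinoma epithelium sum, against 3.32% to 4.80% in the primary tumors. That sum was 1187 CPM in the metastasis, 608 CPM in EMT6-PTR tumor 3 and 2364 to 2692 CPM in the other primary tumors. Plaur was not set against the neutrophil marker sum. The part of lung, endothelial, neutrophil or blood RNA in each of these values was not tested.

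**Figure D5:**
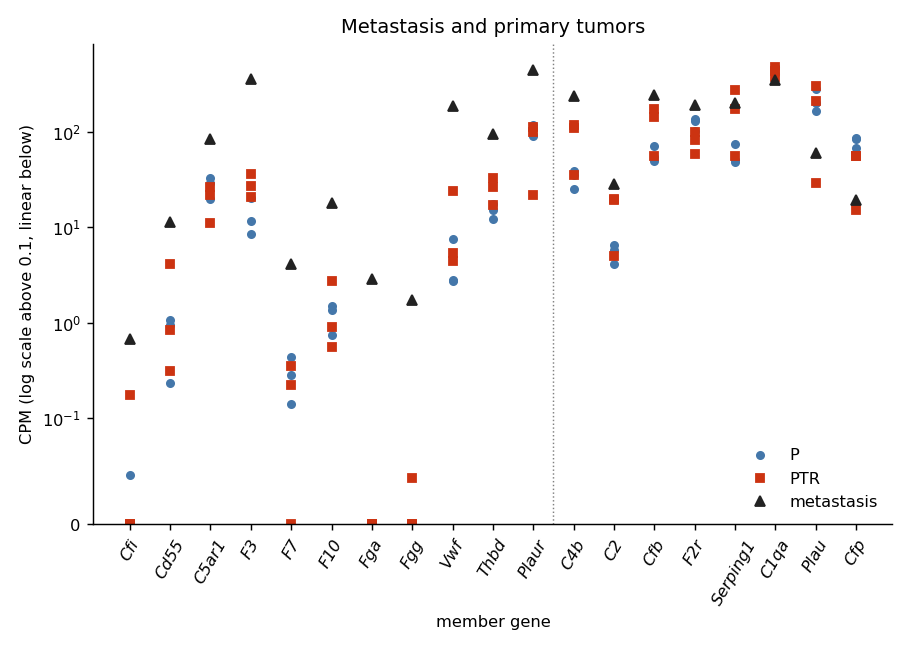
CPM of the 11 members at least 2-fold above all primary tumors in the metastasis (left of the dotted line) and of 8 others (right), on an axis that is logarithmic above 0.1 CPM and linear below it. The metastasis (black triangles) exceeded the EMT6-P (blue circles) and EMT6-PTR tumors (red squares) for F3 at 361 CPM against 35.9 at most, and lay inside the primary range for Serping1 and Plau.

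The complement genes that were high in EMT6-PTR tumors 2 and 3 were high in the metastasis as well. C4b stood at 237 CPM there (7.16 times the EMT6-P mean), C2 at 28.3 CPM (5.15 times), Cfb at 241 CPM (4.16 times), Serping1 at 199 CPM (3.42 times), C1s1 at 205 CPM (2.22 times) and C1ra at 115 CPM (1.81 times). The fibroblast marker sum was 13163 CPM in the metastasis, above 5755 to 7607 CPM in EMT6-P and below EMT6-PTR tumor 3. Relative to it, C1s1 (1.56%, controls 1.07% to 1.69%) and C1ra (0.877%, controls 0.779% to 1.17%) lay inside the control range. C4b (1.80%), Cfb (1.83%) and Serping1 (1.515%) lay above theirs. The part of fibroblast RNA in these values was not tested. C4b, C2, Cfb and C1ra exceeded every primary tumor but stayed under the 2-fold limit, which was set on log2 CPM with a prior count of 2. C4b was the nearest outside that limit, with a log2 difference of 0.999974, and C5ar1 the nearest inside it, at 1.36. Without the prior count C4b lay just past the 2-fold limit, at 237.273 CPM against 118.594 CPM in EMT6-PTR tumor 3. In the metastasis Serping1 and C1s1 lay below EMT6-PTR tumor 3. C3 was highest in the metastasis, at 556 CPM, while Clu, at 257 CPM, lay between EMT6-PTR tumor 3 and the other tumors. Tfpi stood at 18.9 CPM, above the 6.03 to 12.9 CPM of the primary tumors, and Cd59a at 5.58 CPM, above 1.52 to 4.22 CPM. A2m, at 0.319 CPM, was below all of them. C1qa and C1qb, at 350 and 258 CPM, were below all 6 primary tumors, C1qc lay within their range at 374 CPM, and Cfp was at 19.1 CPM, near EMT6-PTR tumor 3. F2r stood at 190 CPM, above all primary tumors, in contrast to its EMT6-PTR values, and Plau at 60.5 CPM was below all but tumor 3.

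Over the tested members, the median log2 difference from the EMT6-P mean was −0.01 in EMT6-PTR tumor 1, 0.29 in tumor 2, 0.00 in tumor 3 and 1.12 in the metastasis, where all tested genes gave medians of 0.00, −0.02, −0.03 and −0.03. Above all 3 EMT6-P tumors were 9, 16, 16 and 22 of the 34 members in these libraries, which is 26.5%, 47.1%, 47.1% and 64.7%, where 32.6%, 33.8%, 39.8% and 39.8% of all tested genes were. Below all 3 were 6, 8, 14 and 9 members, which is 17.6%, 23.5%, 41.2% and 26.5%, where 32.6%, 38.1%, 42.8% and 43.2% of all tested genes were. The 6 tested clotting factors were all above every EMT6-P tumor in EMT6-PTR tumor 3 and in the metastasis, where 39.8% of all tested genes were, but 2 of them in tumors 1 and 2. The 3 tested plasminogen genes were all below every EMT6-P tumor in tumor 3, where 42.8% of all tested genes were, and none in tumor 1.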

How the data were processed

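Poly(A) RNA of 3 EMT6-P tumors, 3 EMT6-PTR tumors and 1 EMT6-PTR metastasis was sequenced from stranded libraries. The authors checked reads with FastQC 0.11.5, aligned them with STAR 2.6.0a to GRCm38 (GENCODE M16) and deposited estimated counts per gene from RSEM 1.3.1, unnormalized and before any filter. RSEM shares reads between near-identical genes by estimation. Members and lists were chosen with earlier results of these data known. Symbols and positions came from GENCODE M21 of the same assembly.

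The deposited counts were rounded and tested with edgeR 4.0.16 (quasi-likelihood test, R 4.3.3) over the 6 primary tumors, with filterByExpr, upper-quartile factors and Benjamini-Hochberg adjustment over 15645 genes at 0.05. The metastasis was compared on log2 CPM with a prior count of 2. The script was tested on simulated data with equal dispersion in both groups, so that test does not cover the unequal spread of these tumors. Estimates were repeated with DESeq2 1.42.0, limma 3.58.1 (voom), other scalings, filters and left-out tumors. Full values were given for the 3 members of each role with the smallest p, those in the study's secreted-factor lists and those at least 2-fold outside the primary range in the metastasis. Of the other pathway genes, the 3 with the smallest p of each list were named, and 2 listed genes are not reported here. Replicate numbers were not used to pair the tumors in the main test. Deviations of same-numbered tumors correlated at 0.259, 0.253 and 0.0384, against at most −0.134, 0.0771 and 0.0979 with other numbers. Replicates 1 and 2 correlated best with their own number and replicate 3 did not. What the numbers share was not tested. The floor of 3 counts covers counting error only.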

Additional observations from a re-analysis of the deposited data

How the results depend on the processing

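No member was called under any of the 14 alternatives. Members higher at an unadjusted p below 0.05 numbered 8, 5 with limma-voom and with the replicate block, and 1 to 10 with each tumor left out. Members lower numbered 1, 2 with DESeq2, limma-voom or no filter, 4 with quality weights for each group, 3 with the replicate block and 0 to 3 with tumors left out. Members at least 2-fold higher numbered 10, 6 with either limma-voom fit or the replicate block and 6 to 9 with tumors left out. Members at least 2-fold lower numbered 0, 2 with either limma-voom fit or no filter, 1 with the replicate block and 0 to 2 with tumors left out. Of the other pathway genes, DESeq2 called 4 and the other fits 0; those at an unadjusted p below 0.05 numbered 10, 6 with the replicate block and 4 to 12 with tumors left out. Members at least 2-fold above all primary tumors in the metastasis numbered 11 (all genes 10.5%), and 12 with total counts or with a prior count of 0.5. Of the 11, Cfi, F7, Fga and Fgg passed the filter only through the metastasis. Counting only members tested in the primary tumors gave 7 (all genes 5.71%), an alternative chosen after seeing the data. With total counts, groups did not overlap for 4 members (higher) and 1 (lower). With tumors left out, log2 fold changes ranged from −0.41 to 1.75 for Cd55, −0.00118 to 2.10 for Clu, −0.34 to 0.24 for C3ar1, −0.84 to 0.25 for Plau, −0.72 to 0.0918 for Plaur and −1.40 to 0.30 for Serpinb2. C3ar1 was 0.00899 with TMM and 0.0131 with DESeq2. The cause was not tested. The replicate block changed no call. Replicates 1 and 2 correlated best with their own number (0.259 against −0.134 and 0.253 against 0.0771). Replicate 3 did not (0.0384 against 0.0979), and what same-numbered tumors share was not tested. The number of tumors and the spread among EMT6-PTR tumors limit these comparisons.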
